A study of Fukomys damarensis with 16 samples.

Results

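The 200 genes whose messenger RNA level varied least across 5 tissues of the Damaraland mole-rat, Fukomys damarensis, were described. They were chosen from 21082 gene identifiers by their own values. A gene first had to reach 5 RPKM (reads per kilobase and per 1e6 reads) in every one of 16 libraries, which 6506 genes did. The 100 of these with the highest minimum were set aside, leaving 6406 candidate genes. Each library was scaled to the same median over the 6506 genes, and the 200 candidates with the lowest standard deviation (SD) of log2(scaled RPKM + 1) over the 16 libraries were taken. All 200 passed every filter on low values, since the choice required it. Because the choice read every library, the values below describe the genes and test nothing about them unless said otherwise.

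Poly(A)-selected RNA was sequenced on an Illumina instrument, 1 library for each combination of tissue, sex and breeding status. Brain, kidney and liver were each taken from both sexes in both states (breeding, non-breeding), which gives 4 libraries a tissue, while testis was taken from males and ovary from females of both states, 2 libraries each. Non-breeding males were 5 years old and non-breeding females 3 years old per the labels, which give no age for breeders, and 3 of the 4 brain libraries are labelled as frontal brain. Every group therefore holds 1 library, libraries of 1 tissue serve as its replicates, and the labels do not tie libraries to animals. The reads behind the RPKM values could be recovered as whole numbers for 100% of the genes. Gene lengths were recovered only up to a common unit, taken as 3 bases, so lengths in bases rest on that assumption. Reads on genes numbered 15393003 to 27593857 per library, and a library's median read count over the 200 genes was 706 to 1852.5, fewest in a liver and most in a testis.

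Damaraland mole-rats live in colonies in which few animals breed and the others help. Genes whose RNA is present at like levels in all tissues are often called housekeeping genes, since many of them encode the basic machinery of transcription, RNA splicing, protein turnover and membrane traffic that all cells use. Such genes are used as internal standards when RNA is compared between tissues, and how level they are has to be measured for each species and set of tissues. None of the 21082 identifiers (0 of 21082) was found in the RefSeq gene table, so the files pair no identifier with a name, no function can be given for any of the 200 genes, the tissues could not be checked against marker genes, and single genes are given by identifier.

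The 200 genes differed by less than about 2-fold between their highest and lowest library. The ratio of highest to lowest scaled RPKM had a median of 1.75 over the 200 genes (1.26 to 2.17) and of 4.12 over the 6406 candidates. It was under 2 in 189 of the 200, and in 320 of the candidates, or 5.00%. The SD ran from 0.09 to 0.25 on the log2 scale with a median of 0.22 over the 200, against a median of 0.58 and a highest value of 4.73 over the candidates. Only 51 of the 200 had an SD under 0.2. The limit of the list fell in a dense part of the ranking. DMR_19285 and DMR_02736, the last inside it, had SDs of 0.250895 and 0.251043, and DMR_11690 and DMR_14949, the next outside it, had SDs of 0.251318 and 0.251432.

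**Figure D1:**
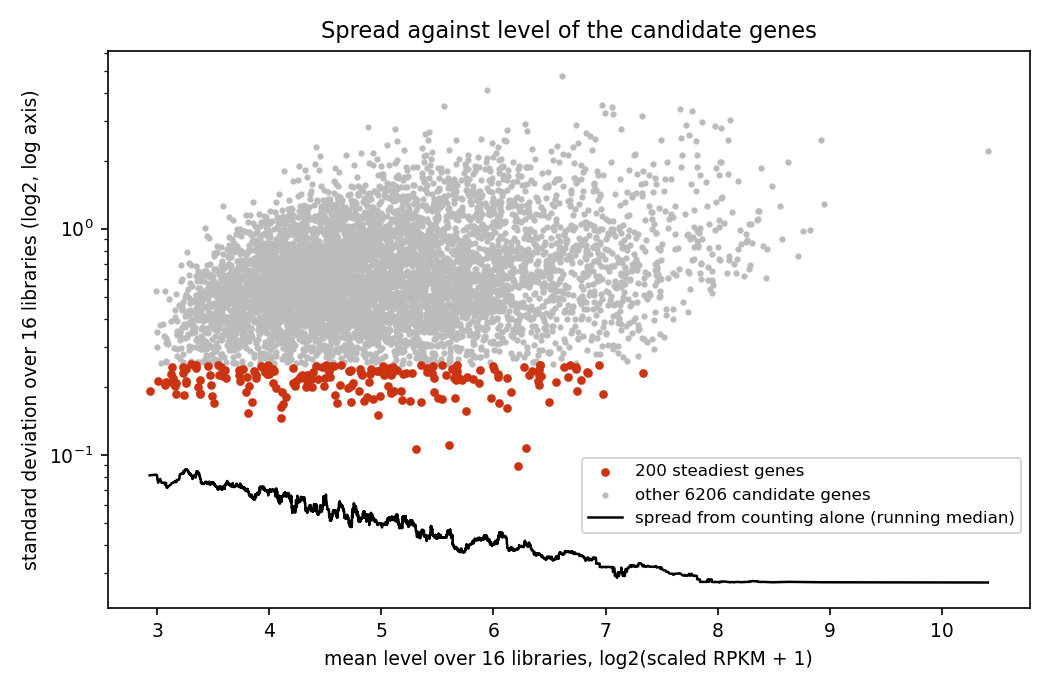
Each point is a candidate gene, with its mean level over the 16 libraries on the x axis (log2(scaled RPKM + 1)) and its SD over the 16 libraries on the y axis (log2 units, drawn on a log axis). The 200 steadiest genes are red, the other candidates grey, and the black line is a running median of the SD that counting error alone gives. 4 genes lie well under the rest at SDs of 0.09 to 0.11, and the list extends over levels of 6.70 to 162 scaled RPKM.

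After scaling to a common median, a group of 4 genes stood apart at the bottom of the ranking. The widest gap between neighbouring SDs among the 200, 0.035 on the log2 scale, followed the fourth gene, and the second widest was 0.016. Other scalings did not keep this group apart in the same way. The SDs of the 4 genes were 0.135 to 0.145 in the deposited RPKM, where another member was lower. Per reads on genes they were 0.474 to 0.505, against a median of 0.510 over the 200. DMR_10153 had the lowest SD under this scaling. Its scaled RPKM in the breeding male, breeding female, non-breeding male and non-breeding female was 67.8, 72.8, 77.1 and 65.7 in brain, 73.1, 85.3, 77.4 and 72.3 in kidney, and 70.7, 68.5, 71.4 and 71.7 in liver. It was 78.3 and 74.9 in the breeding and non-breeding ovary, and 73.1 and 74.5 in the breeding and non-breeding testis. Liver, ovary and testis all lay within the range of kidney and brain, and the breeding female kidney was the highest library. Its SD was 0.09 (0.14 in the deposited RPKM, where another member had the lowest SD of the 200 at 0.13, and 0.50 per reads on genes), its mean 73.4 scaled RPKM, and between 3236 and 8643 reads lay behind each value.

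DMR_04908, the second, had a mean of 38.6 scaled RPKM and an SD of 0.11. In the same order of animals it had 34.6, 39.2, 35.4 and 43.8 scaled RPKM in brain, 32.5, 37.6, 39.1 and 39.6 in kidney, and 38.0, 38.0, 38.9 and 39.7 in liver. The breeding and non-breeding ovary had 43.1 and 38.3, and the breeding and non-breeding testis 40.8 and 39.4. The 4 livers were close together, while brain alone spanned most of the range. This is a gene model of 894 bases with 487 to 1264 reads per library, and its SD was 1.94 times that which counting error alone would give. DMR_10126 (68.2 to 90.6 scaled RPKM, mean 77.3) and DMR_05146 (43.3 to 54.5, mean 47.7) both had an SD of 0.11. The fifth gene, DMR_02891, already stood at 0.15. These last 3 were named after their values were seen.

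**Figure D2:**
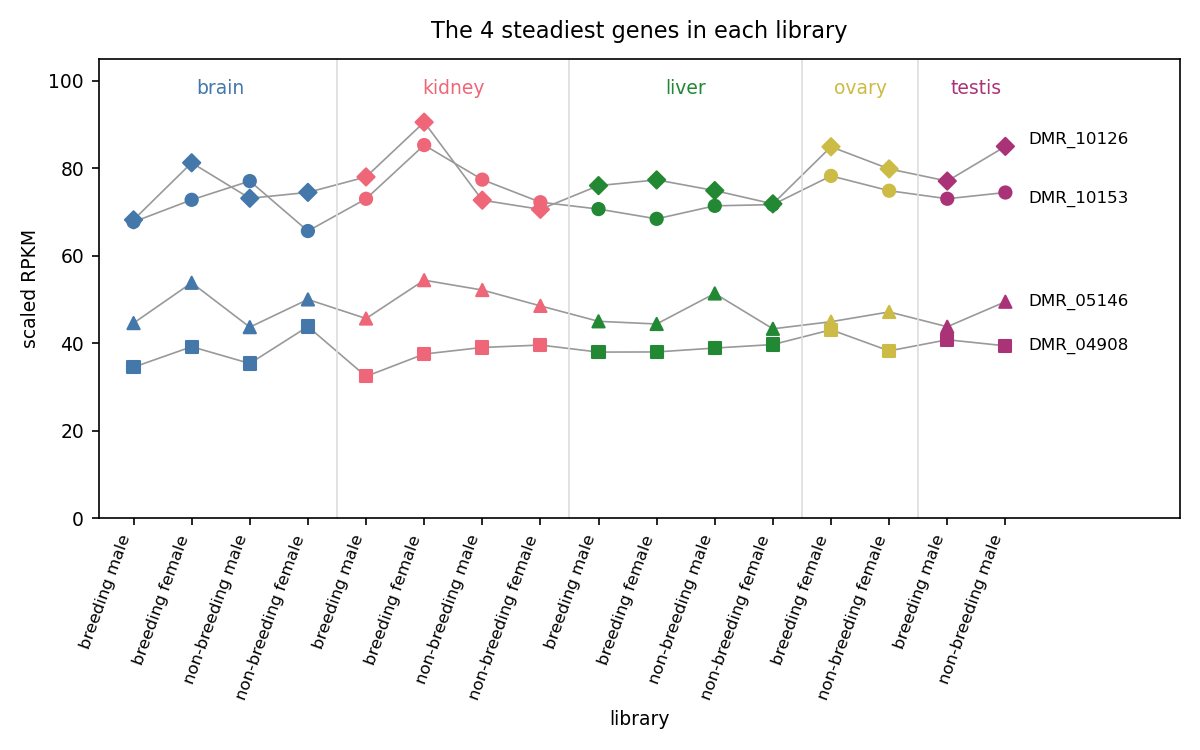
Scaled RPKM (y axis, from 0) of the 4 steadiest genes in each of the 16 libraries (x axis), coloured by tissue. Circles are DMR_10153, squares DMR_04908, diamonds DMR_10126 and triangles DMR_05146. Grey lines join the libraries of 1 gene and have no further meaning. DMR_10153, DMR_10126 and DMR_05146 are all highest in the breeding female kidney, at 85.3, 90.6 and 54.5 scaled RPKM.

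The 200 genes leaned to longer gene models than the candidates, and how their level compared depended on the measure. Their mean level had a median of 25.8 scaled RPKM, against 32.2 over the candidates. A gene's median deposited RPKM over the libraries had a median of 25.9 in the 200 and 27.8 in the candidates. For its minimum the medians were 19.3 and 12.8, higher in the 200. The highest were DMR_18208, with a mean of 162 scaled RPKM (113 to 204), and DMR_05148, with 126 (99.0 to 159). The lowest were DMR_07946, with 6.70 (5.19 to 8.45), and DMR_06430, with 7.13 (5.55 to 10.7). When the candidates were divided into 4 equal bins by level, the bins from low to high held 68, 41, 46 and 45 of the 200. The candidates' median SD was 0.49 in the lowest bin and 0.60 to 0.67 in the others. A gene with a mean near 5 RPKM passes the limit in all 16 libraries only if it is steady, and the added 1 narrows its log2 spread. The part of this in the count of the lowest bin was not tested. Length, which the choice did not use except as a part of RPKM, showed a steeper gradient. The median gene model was 1887 bases long in the 200 (174 to 10398) and 1380 bases in the candidates, and the 4 bins by length, from short to long, held 19, 45, 63 and 73 of the 200, or 1.19%, 2.81%, 3.93% and 4.56% of each bin. At a given RPKM a longer model holds more reads. By reads, the bins from few to many held 49, 43, 49 and 59 of the 200, and the part of counting error in the gradient with length was not tested.

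Reads were enough for counting error to make up little of the spread, even in genes this steady. The counting SD, from the read counts alone, had a median of 0.045 on the log2 scale over the 200. The observed SD was a median of 4.75 times the counting SD in the 200 (1.80 to 22.6) and 11.2 times in the candidates. Counting made up a median of 4.43% of the variance in the 200 and 0.799% in the candidates. Only 4 of the 200 and 10 candidates in all (0.156%) had an SD under 2 times the counting SD. They were DMR_04280 at 1.80 times, DMR_19483 at 1.81, DMR_16564 at 1.82 and DMR_04908 at 1.94. DMR_16564 was named after its values were seen. Some genes outside the list were closer still. DMR_11149 stood at 1.42 times with only 17 to 83 reads per library, and DMR_20481 at 1.48 times. Counting intervals cover counting error only, as amplified reads carry no molecular identifiers.

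The variation of the 200 genes lay between tissues to a lesser extent than that of the candidates, as values from the same 16 libraries that the choice used. Differences between the 5 tissues made up a median of 56.0% of a gene's sum of squares in the 200 (5.54% to 93.9%), against 84.9% in the candidates. Spread unrelated to tissue would put 26.7% there, from 4 of 15 degrees of freedom. More than 50% of it lay between tissues in 123 of the 200, and in 92.4% of the candidates. The within-tissue SD was also lower, with a median of 0.16 in the 200 and 0.26 in the candidates. The largest tissue share, 93.9%, was that of DMR_12275. Its scaled RPKM was 22.8 to 26.3 in the 4 kidneys, and 14.7 to 19.0 in the other 12 libraries, with no overlap. The smallest, 5.54%, was that of DMR_06959. It had 46.9 scaled RPKM in the breeding female brain and 45.3 in the breeding female kidney, against 25.2 to 37.1 in the other 14 libraries, so a pair of libraries of different tissues stood out. Its tissue share was 14.6% in the deposited RPKM and 79.4% per reads on genes. In tissue RNA, fewer cells of a type and less RNA per cell cannot be told apart.

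No tissue differed from the mean of the other 4 by a log2 difference of 1 in any of the 200, while 25.9% (brain), 11.6% (kidney), 20.9% (liver), 14.5% (ovary) and 28.4% (testis) of the candidates did. The choice fixed this, since a tissue difference of 1 would put a gene's SD over the limit of the list. Testis gave the widest differences, from -0.63 to 0.59, and was the farthest tissue for 60 of the 200 genes, or 30%, close to its share of 31.7% of the candidates. Ovary was farthest for 43 of the 200 and 14.6% of the candidates, brain for 41 and 26.9%, liver for 29 and 18.3%, and kidney for 27 and 8.40%. A limit on the SD over 16 libraries allows a wider difference in a tissue with 2 libraries (ovary, testis) than in a tissue with 4. Nothing is therefore read from the order of the tissues in width or in these counts. Beyond 0.25 in either direction lay 35% of the 200 in testis, 25.5% in brain, 25.5% in ovary, 21% in liver and 16% in kidney. The same counts in the candidates were 78.0%, 75.9%, 67.9%, 73.0% and 63.1%. In ovary, 118 of the 200 lay above and 82 below the mean of the other tissues, 39 of them above 0.25 and 12 below -0.25, against 3127 above and 3279 below in the candidates, 2112 and 2239 of them beyond 0.25. The 2 ovaries differed in this. The median deviation of the 200 from their own means was -0.0047 in the breeding female's ovary and 0.09 in that of the non-breeding female, and the geometric mean was 26.68 scaled RPKM in the breeding ovary, no higher than in the highest brain at 26.69, and 27.97 in the non-breeding ovary. Liver leaned the other way under this scaling, with 73 above and 127 below, and that direction flipped under others. The geometric mean over the 200 genes in liver differed from the other 4 tissues by -0.03 on the log2 scale after scaling to a common median, by 0.08 in the deposited RPKM, by 0.12 with TMM factors (trimmed mean of M values) and by -1.09 per reads on genes. The same difference for ovary was 0.06, 0.12, 0.07 and 0.48, above 0 under each of these 4 scalings.

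The members with the widest tissue differences were still close in level. DMR_12067 had 23.9 and 18.8 scaled RPKM in the breeding and non-breeding testis, and 11.6 to 15.7 in the other 14 libraries, a log2 difference of 0.59. DMR_07308 had 16.5 and 14.1 in the breeding and non-breeding testis, and 20.46 to 29.0 elsewhere, a difference of -0.63. For both, the testes lay outside the range of all other libraries. DMR_06804 had 48.3 and 54.4 in the breeding and non-breeding ovary (0.51), above the 28.5 to 43.7 of the other libraries. DMR_19392 had 42.3 and 34.1 there (-0.47), which overlapped with liver at 41.4 to 48.2. In kidney, DMR_19204 had 53.4 to 57.3 (0.49), above all other libraries at 32.9 to 50.1, and DMR_13919 had 24.1 to 33.7 (-0.43), just under the lowest liver at 33.9 and below all other libraries. In brain, DMR_19376 had 31.9 to 33.6 (-0.43), below all other libraries at 38.0 to 58.1, and DMR_19975 had 10.8 to 12.7 (0.41), above all others at 7.16 to 10.2. DMR_00344 had 14.1 to 16.7 in liver (-0.40), overlapping with the lowest kidney and brain, and DMR_07734 had 23.6 to 32.8 in liver (0.39), overlapping with brain and ovary. Scaling to reads on genes moved most of these differences. That of DMR_07734 reversed to -0.63 in liver, and that of DMR_00344 became -1.38. In ovary DMR_19392 stood at -0.06 and DMR_06804 at 0.92. In testis DMR_07308 stood at -0.21 and DMR_12067 at 1.01. In kidney DMR_19204 stood at 0.63 and DMR_13919 at -0.29, while in brain DMR_19376 at -0.39 and DMR_19975 at 0.45 moved little.

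**Figure D3:**
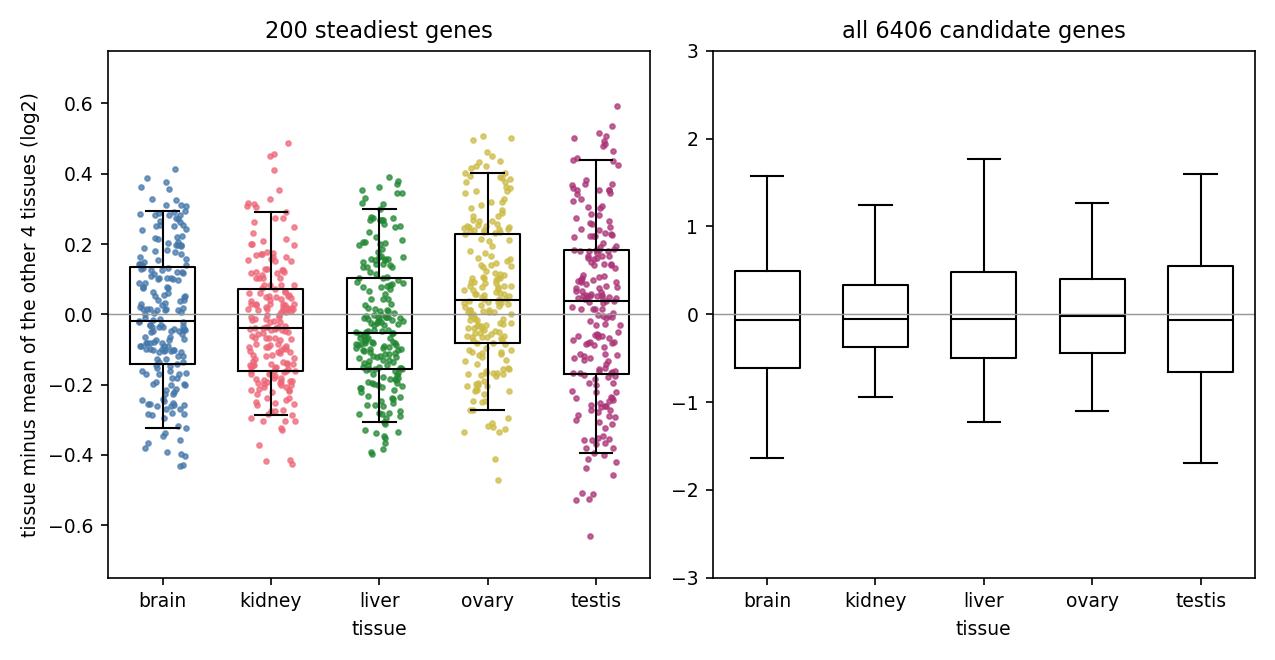
For each tissue on the x axis, the y axis gives the log2 difference between that tissue's mean and the mean of the other 4 tissues, for the 200 steadiest genes (left, 1 point per gene) and for all 6406 candidates (right, boxes only, on a wider y axis). Boxes span the quartiles with the median as a line, and whiskers run from the 5th to the 95th percentile. All points of the 200 lie between -0.63 and 0.59, with the widest scatter in testis.

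In limma's moderated F test over the 5 tissues, 74 of the 200 passed a Benjamini-Hochberg adjusted p of 0.05, as did 93% of all 17327 genes tested. With a log2 difference of at least 1 between some pair of tissues required as well, 0 of the 200 and 83.9% of all genes passed. The choice used these values, so nothing is read from those counts. In the genes of the 200 that did not pass, a tissue difference was not detectable with 2 to 4 libraries per tissue, which does not show that the tissues were equal.

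Libraries of 1 tissue were nearest to each other over the 200 genes. The choice read the same values but no tissue label, so this is a description. The nearest library, by root mean square (RMS) distance over the 200 genes, was of the same tissue for 16 of 16 libraries. It was also 16 of 16 over all candidates. With 1 minus Pearson's correlation as the distance it was 15 of 16 over the 200. Over the 200, distances within a tissue had a median of 0.23 log2 units (0.16 to 0.32, 20 pairs of libraries), and between tissues of 0.32 (0.25 to 0.39, 100 pairs). The ranges overlapped, and the ratio of the medians was 1.42. Over the candidates the distances were 0.28 to 0.60 within and 0.88 to 1.60 between tissues, with a ratio of 2.87 and no overlap. The closest pair over the 200 was the kidney of the breeding male and that of the non-breeding male, at 0.16. The breeding female kidney lay 0.28 from its nearest kidney, against 0.16 to 0.20 for the other 3 kidneys. The highest RMS deviation from the gene means over all 16 libraries was that of a testis, at 0.26, and the other testis had 0.24.

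In the comparison by breeding status, 0 of the 200 were called. The choice used these libraries and few of all genes were called, so nothing is read from that count. The comparison asks whether the RNA of breeding animals differed from that of non-breeding animals of the same tissue and sex. limma with tissue and sex as further terms called 0 of the 200 at an adjusted p of 0.05, and 4 of all 17327 genes (0.0231%). The voom version on the recovered reads also called 0 of the 200. At an unadjusted p of 0.05, limma had 8 of the 200 and 8.93% of all genes. The mean paired difference over 8 pairs (breeding minus non-breeding) ran from -0.26 to 0.33 over the 200, with a median of -0.02. None of the 200 was higher in breeders in all 8 pairs, and 1 was lower in all 8. Among the candidates 0.812% were higher and 0.827% lower in all 8. The gene lower in all 8 pairs was DMR_00734, named after its values were seen, with a mean of 11.02 scaled RPKM over the 16 libraries and a log2 difference of -0.23 (limma SE 0.0855, adjusted p 0.509).

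DMR_03257 had the most positive difference between breeders and non-breeders. In the male and the female it had 16.04 and 13.0 scaled RPKM in breeding brain against 10.8 and 9.43 in non-breeding brain, 15.95 and 14.3 in breeding kidney against 12.6 and 9.58 in non-breeding kidney, and 15.7 and 12.3 in breeding liver against 12.5 and 9.16 in non-breeding liver. The breeding ovary had 13.2 against 11.8 in the non-breeding one, and the breeding testis had 13.7 against 13.9. It was higher in 7 of 8 pairs, with the testis pair as the exception. It averaged 14.3 ± 1.47 scaled RPKM in breeders and 11.2 ± 1.76 in non-breeders (SD, n = 8 each), a log2 difference of 0.33 with a standard error (SE) of 0.085 and a limma adjusted p of 0.470. That was the smallest adjusted p for breeding status among the 200. Since the labels do not tie libraries to animals, tissues of 1 sex and status may share an animal, and the 8 libraries of a status would then not be independent and the SE too small. This holds for the comparison of the sexes too.

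DMR_17579 had the most negative one. In brain, kidney and liver the 6 breeding libraries had 27.0 to 30.3 scaled RPKM and the 6 non-breeding libraries 34.2 to 40.5, with no overlap. The breeding ovary had 28.5 against 27.7 in the non-breeding one, and the breeding testis had 44.7 against 44.8. It averaged 30.8 ± 5.73 in breeders and 36.9 ± 5.08 in non-breeders (SD, n = 8 each), a log2 difference of -0.26 with an SE of 0.076 and a limma adjusted p of 0.480. The labels give no age for breeders, and age and breeding status cannot be told apart.

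Sex gave 0 calls among the 200 as well, and nothing is read from that count either. limma called 0 of the 200 and 83 of all 17327 genes (0.479%) at an adjusted p of 0.05, and voom called 0 of the 200. At an unadjusted p of 0.05, limma had 15 of the 200 and 17.9% of all genes. The mean difference over the 6 pairs of brain, kidney and liver (male minus female) ran from -0.28 to 0.36. Of the 200, 6 were higher and 10 lower in males in all 6 pairs, against 7.62% and 7.09% of the candidates. Non-breeding males were older than non-breeding females per the labels, which give no age for breeders, so sex and age cannot be told apart. DMR_12265 had the most positive difference. The males had 54.2 (breeding) and 41.7 (non-breeding) scaled RPKM in brain, 50.6 and 44.9 in kidney and 57.0 and 47.2 in liver. The females had 43.4 (breeding) and 34.7 (non-breeding) in brain, 43.3 and 33.4 in kidney and 36.4 and 37.3 in liver. Males were higher in 6 of 6 pairs. The level was 49.3 ± 5.75 in males and 38.1 ± 4.30 in females (SD, n = 6 each), with a log2 difference of 0.36, an SE of 0.096 and a limma adjusted p of 0.0937, the smallest for sex among the 200. The gonads did not follow this order, with 35.5 and 39.0 in the breeding and non-breeding testis and 45.3 and 49.3 in the breeding and non-breeding ovary. DMR_02895 had the most negative difference, at 13.0 ± 1.297 in males and 16.1 ± 2.36 in females (SD, n = 6 each). Its log2 difference was -0.28 with an SE of 0.118 and a limma adjusted p of 0.234, and males were higher in 1 of 6 pairs, that of the breeding livers.

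Genes chosen as steady in some libraries were also steadier than the candidates in libraries that the choice did not use. Each of the 16 libraries was left out in turn, 200 genes were chosen by the same rule in the other 15, and their deviation in the left-out library from their mean in the others was read. The median deviation was 0.15 to 0.26 log2 units in the chosen genes and 0.31 to 0.61 in the candidates, or 1.62 to 2.92 times as much in the candidates. The remaining libraries of the same tissue were still part of each such choice, so a lower deviation was partly built in. Genes chosen from breeding libraries alone (n = 8) had a median SD of 0.26 in the 8 non-breeding libraries, against 0.60 in the candidates. Those chosen in the 8 non-breeding libraries had 0.26 in the 8 breeding libraries, against 0.61. Both sets of 8 hold the same 5 tissues.

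A tissue that was not used was a harder case. The median deviation of the chosen genes in a tissue left out whole was 0.50 in testis (candidates 0.65), 0.40 in brain (0.61), 0.31 in liver (0.53), 0.27 in ovary (0.43) and 0.25 in kidney (0.41). The candidates' median deviation was 1.28 times that of the chosen genes in testis and 1.73 times at most, in liver. Between 23.5% (kidney) and 38.5% (testis) of the chosen genes deviated more than the candidates' median.

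**Figure D4:**
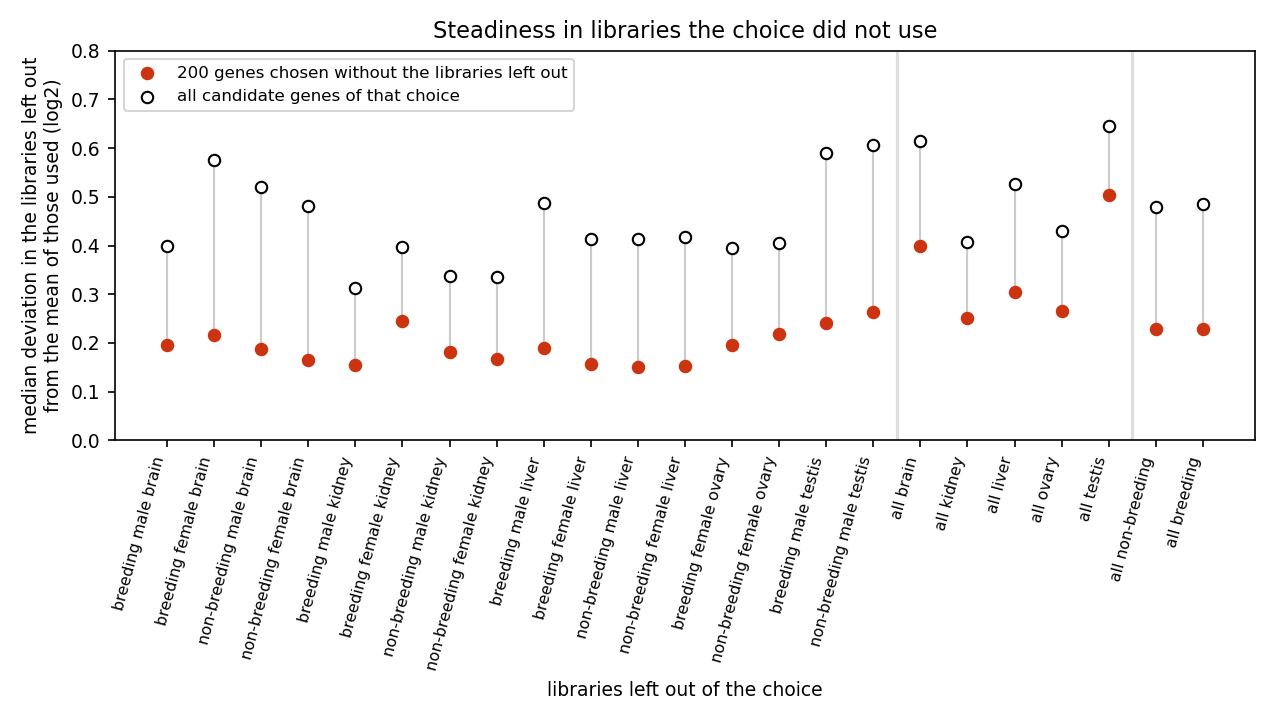
For each library, tissue or breeding status left out of the choice (x axis), the y axis gives the median deviation, in log2 units, of genes in the libraries left out from their mean in the libraries used. Filled red points are the 200 genes chosen without those libraries and open points all candidates of that choice. Red points lie under their open points throughout, at 0.15 to 0.26 for single libraries and up to 0.50 for testis as a whole.

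The identity of the chosen genes changed with the libraries used. Leaving out 1 library gave back 169 to 190 of the 200. Leaving out a whole tissue gave back 147 (ovary), 136 (kidney), 115 (liver), 107 (testis) and 95 (brain). The lists from the 8 breeding and the 8 non-breeding libraries, 200 genes each, shared 69 genes (34.5% of each), and 68 of those were among the 200. On the other side, 24 of the 200 were in neither list. Of the 200, 145 were chosen in all 16 of the choices without 1 library and 20 in fewer than 8 of them, while 197 genes outside the list were chosen at least once.

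What counts as steady depended on how libraries were made comparable, above all in liver. Scaled to a common median, the geometric mean of the 200 genes was 25.8 to 28.0 RPKM in the 16 libraries, a ratio of 1.09 between the highest and the lowest. As deposited it was 23.8 to 28.9, a ratio of 1.21. Expressed per 1e6 reads on genes, it was 14.2 to 16.6 in the 4 livers and 27.4 to 37.8 in the other 12 libraries, a ratio of 2.66 between extremes, and the liver mean lay below every other library. The 200 genes took 0.884% to 1.03% of all reads on genes in liver, 1.77% to 1.90% in brain and kidney and 2.11% to 2.37% in ovary and testis. The deposited RPKM fix only the product of gene length and the divisor that stands for 1e6 reads, and a unit of length of 3 bases was assumed. With that unit, the divisor was smaller than the reads on genes in liver alone. Reads on genes were 1.55 to 1.97 times the divisor in liver and 0.665 to 0.945 times elsewhere. Another unit would change these ratios, and the levels per 1e6 reads on genes, by a factor common to all libraries. The sources used here do not define the divisor. Under scaling to reads on genes the median SD of the 200 was 0.51, against 0.74 in the candidates, and only 12 of the 200 were among the 200 steadiest.

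**Figure D5:**
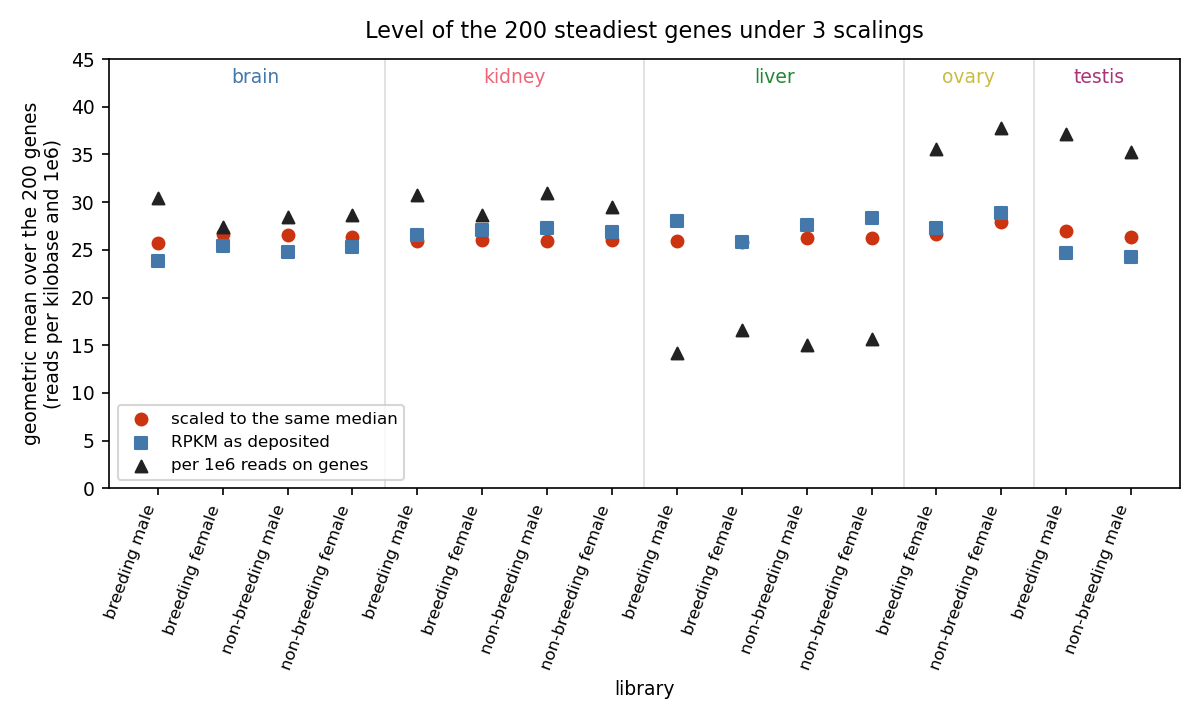
Geometric mean over the 200 steadiest genes (y axis, reads per kilobase and per 1e6) in each library (x axis) under 3 scalings. Blue squares are RPKM as deposited, per 1e6 of the divisor, and red circles are these scaled to the same median. Black triangles are per 1e6 reads on genes. The 4 liver libraries fall to 14.2 to 16.6 per 1e6 reads on genes, while the circles stay within 25.8 to 28.0.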

How the data were processed

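The 200 genes and all lists were chosen with earlier results of these data known. The authors deposited 1 table of RPKM values, a normalized unit and not counts. The reads were aligned with TopHat 1.3.1, per the submitters' processing notes. Genome build, annotation and read counter: not given in the sources used here. Whole reads were recovered by finding, for each library, the divisor and, for each gene, the length that turn all its RPKM values into whole numbers (largest relative deviation 2.93e-14). The values fix only the product of length and divisor, and lengths were assumed to be multiples of 3 bases. With that unit, divisors were 13274642 to 38953023. Each library was scaled to the same median over the 6506 genes at 5 RPKM or more in all 16. Tests used limma 3.58.1 (R 4.3.3, eBayes with trend) on log2(scaled RPKM + 1), over the 17327 genes at 1 RPKM or more in at least 2 libraries, with Benjamini-Hochberg adjustment; log2 fold changes understate changes of low genes. The scripts were tested on simulated data. Named genes are the 2 steadiest, the 2 on each side of the limit, the 2 highest and 2 lowest in level, and the extremes of each difference, tissue share and ratio to counting error. The spread is that between libraries, which may be technical. Alternatives were other scalings, pseudocounts, limits, measures of spread and sets of libraries, and voom with TMM factors on the recovered reads.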

Additional observations from a re-analysis of the deposited data

Results flagged for a closer look

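In groups of 4 libraries of 1 tissue, 7 of 111 sets of values had a library far from the other 3 (a gap over 0.829 of the group's range). Chance gives about 1 in 20 such groups. The share of reads on the 200 genes was 1.86% in the breeding male brain, against 1.77% to 1.78% in the other brains. DMR_06959 had 46.9 scaled RPKM in the breeding female brain, against 27.6 to 28.7 in the other brains. DMR_19285 had 32.9 in the same library, against 44.2 to 45.6. DMR_19392 had 63.4 in the breeding male kidney, against 53.4 to 54.0 in the other kidneys, and 48.2 in the breeding male liver, against 41.4 to 42.6 in the other livers. DMR_06804 had 34.7 in the breeding female liver, against 38.9 to 39.8. DMR_11690, just outside the list, had 24.0 in the non-breeding female liver, against 33.1 to 34.9. In the breeding female kidney the gap stayed under that limit, with DMR_06959 at 45.3, against 25.2 to 29.8 in the other kidneys, and DMR_19285 at 32.01, against 48.1 to 57.2.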

How the results depend on the processing

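Which genes were the 200 steadiest depended on the scaling and on the measure of spread. Of the 200, 12 were kept when libraries were scaled to reads on genes, 114 after quantile normalization, 79 by median absolute deviation, 124 by the SD over the 5 tissue means, and 75 with kidney, liver and brain only. More were kept in the deposited RPKM (144), with TMM factors on the recovered reads (144), by range (159) and relative to genes of like mean level (147). The choice kept 95 without brain, 115 without liver, 107 without testis, 120 in breeding libraries and 124 in non-breeding ones. It kept 169 to 190 when 1 library was left out. Genes over the limit in all 16 libraries numbered 10139 at 1 RPKM and 4139 at 10 RPKM, and 6510 to 6568 without 1 library. The tissue test called 200 of the 200 when scaled to reads on genes, 136 after quantile normalization, 0 with a log2 difference of at least 1 as well, and 52 to 92 without 1 library. The median tissue share of the sum of squares was 91.0% when scaled to reads on genes and 54.6% to 61.5% without 1 library, highest without the breeding female kidney. Breeding status and sex called 0 of the 200 under each alternative run. The nearest library was of the same tissue for 14 to 15 of 15 when 1 was left out. Leaving out a gonad leaves its partner without one, but the count was also 14 without the breeding male kidney. Of 33 values of named genes, 11 moved beyond a set limit as deposited, 22 when scaled to reads on genes and 7 with a pseudocount of 0.1, and the cause was not tested. The limit was the gene's within-tissue SD for levels and differences, and 10 percentage points for tissue shares. For a gene's SD, it was the SD of the values found when each library was left out in turn. Precision is limited by groups of 1 library and by 2 libraries per gonad. Pairs of libraries matched by tissue and by sex or status were described. With a replicate block, no paired analysis was possible because each group holds 1 library and the labels carry no replicate numbers.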

Other observations

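The variation left in the 200 genes after each tissue's mean was removed was partly shared between libraries of different tissues. This was computed after the data were seen. Brain, kidney and liver, with 4 libraries each, were compared. Across the 200 genes, Pearson's r between libraries of different tissues but the same sex and breeding status had a median of 0.28 (-0.17 to 0.54, 10 of 12 pairs above 0). Between libraries of different sex or breeding status it had a median of -0.04 (-0.52 to 0.27, 14 of 36 pairs above 0). The breeding male libraries were the most alike, at 0.42 to 0.54 over their 3 pairs of tissues, then those of the non-breeding female, at 0.21 to 0.46. The non-breeding male had 0.09 to 0.29, and the breeding female 0.31 between brain and kidney but -0.17 and -0.06 with liver. Over all 6406 candidates the medians were 0.36 for the same sex and breeding status and -0.12 for different ones. Genes are not independent replicates, the removal of tissue means ties the 4 libraries of a tissue to each other, and the labels do not say whether libraries came from 1 animal. Gene length moved with these deviations in some libraries. Over the 200, Spearman's rho between length and deviation was -0.10, -0.12 and -0.06 in the breeding male brain, kidney and liver and 0.13, 0.17 and 0.18 in the breeding female, and ran from -0.39 (non-breeding female brain) to 0.29 (non-breeding male brain) over these tissues. Over the candidates, rho was -0.31, -0.23 and -0.31 in the breeding male brain, kidney and liver. In the breeding female it was 0.31, 0.11 and 0.03 in the same order. The part of length in the correlations was not tested.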
